A study of Mus musculus with 17 samples.

Results

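The liver's blood channels were followed through 10 genes: 6 that mark sinusoidal endothelium (Stab1, Stab2, Lyve1, Clec4g, Kdr, and Pecam1) and 4 that code for leukocyte adhesion molecules (Icam1, Vcam1, Sele, and Selp). Every probe that carries one of these symbols in the deposited log2 ratio table was taken, which gave 20 of the 41174 probes, 12 for the sinusoidal markers and 8 for the adhesion molecules. Of these, 19 were bright enough to be tested, among 34650 probes in all. The values come from whole liver of 17 male mice, 1 array per mouse. All were fed their diet for 3 months. Chow mice (n = 4) ate chow and received a maltose gavage, and 1B mice (n = 4) ate chow and received 1 ethanol gavage of 5 g/kg. HFD mice (n = 4) ate a high-fat diet (60% of calories as fat) and received maltose. HFD+1B mice (n = 5) ate the high-fat diet and received the ethanol gavage. The mice were killed 9 hours later. The strain is C57BL/6N in the labels and C57BL/6J in the methods, and neither names a transgene or a deleted gene for these groups.

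Sinusoidal endothelial cells line the liver capillaries. Unlike most endothelium they are perforated by open pores, lack an organized basement membrane, and clear waste macromolecules from blood through scavenger receptors such as the stabilins. When endothelium is exposed to cytokines such as tumor necrosis factor or interleukin-1, it displays selectins, which catch and roll passing leukocytes, and immunoglobulin-family molecules such as ICAM-1 and VCAM-1, which hold them through integrins. In liver sinusoids, leukocyte capture is known to rely less on selectins than in other vascular beds.

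Each array value is the log2 ratio of Cy5 signal, from liver of 1 mouse, over Cy3 signal, from reference RNA of mixed mouse origin that was common to all arrays. The ratio of a gene can be compared between mice, but not with the ratio of another gene. Differences between groups are log2 differences from a limma fit over all 17 arrays, with p-values adjusted by Benjamini-Hochberg over 34650 probes, and a difference counts as called when that p is 0.05 or lower. The median Cy5 signal above local background ranged from 43 to 138.5 intensity units, and between 74.2% and 86.1% of probes were well above background. The number of mice, 4 or 5 per group, limits the precision. The hepatocyte gene Alb was well above background on all 17 arrays, with group means of 1.19 to 1.53 over the 15 arrays that gave a value, and was not called. Hepatocyte genes as a list did move, as given with the markers of other cells. Where a gene has several probes, the one brightest in Cy5 is probe 1 and is the one counted.

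The sinusoidal markers did not move as a group, and among the adhesion molecules the differences that were called were rises. Sele was kept out of the counts and medians in these Results, because its probe passed the filter on dim probes through HFD+1B alone. This leaves 3 adhesion molecules. In HFD+1B against chow, where 14.8% of all probes were called, Lyve1 rose, Kdr fell, Clec4g fell on its brightest probe but rose on another, and the other 3 of the 6 sinusoidal markers were not called. Of the 3 adhesion molecules, 2 rose (Vcam1 and Selp). Over all probes, rises made up 7.8% and falls 6.98% there, 9.92% and 8.02% in HFD+1B against HFD, and 5.3% and 4.7% in HFD+1B against 1B. The median log2 difference was 0.04 over the sinusoidal markers, on the brightest probes, and 0.40 over the adhesion molecules, beside 0 over all 19348 genes tested. In HFD+1B against HFD, with 17.9% of probes called, 1 sinusoidal marker rose and 3 fell, Clec4g among them (median -0.37), and 1 adhesion molecule rose (median 0.32). In HFD+1B against 1B, with 10% of probes called, 1 sinusoidal marker rose and 2 fell, Clec4g among them (median -0.01), and 1 adhesion molecule rose (median 0.23). With the mean of a gene's probes, Clec4g was not called in any of these comparisons.

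Either challenge alone called fewer: 1 sinusoidal marker rose in 1B against chow (3.62% of all probes called, 1.84% higher and 1.78% lower) and 2 rose in HFD against chow (9.98% called, 3.88% higher and 6.1% lower). No adhesion molecule was called in either by limma (0 and 2 had an unadjusted p under 0.05, and 0 and 0 passed the methods' Tukey test). On the probe counted, the groups did not overlap for 3 sinusoidal markers (1 higher, 2 lower) and 1 adhesion molecule (higher) in HFD+1B against chow, where 7.33% of all probes lay wholly higher and 7.16% wholly lower. Against HFD this held for 4 sinusoidal markers (1 higher, 3 lower) and 1 adhesion molecule (higher), beside 7.58% and 6.82% of all probes. Against 1B it held for 3 (1 higher, 2 lower) and 2 (both higher), beside 4.96% and 5.46%. In 1B against chow it held for 2 sinusoidal markers (1 higher, 1 lower) and no adhesion molecule, beside 5.65% and 5.45%, and in HFD against chow for 2 and 1 (all higher), beside 8.36% and 9.95%. HFD+1B appears in 3 of these comparisons and chow in 3, so they are not independent. The counts of adhesion molecules depend on the scaling: with the Cy5 channel alone, Icam1, Vcam1, and Selp (probe 1) were not called in any of the 3 comparisons with HFD+1B, and with median centring 1 of them was called in each.

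**Figure D1:**
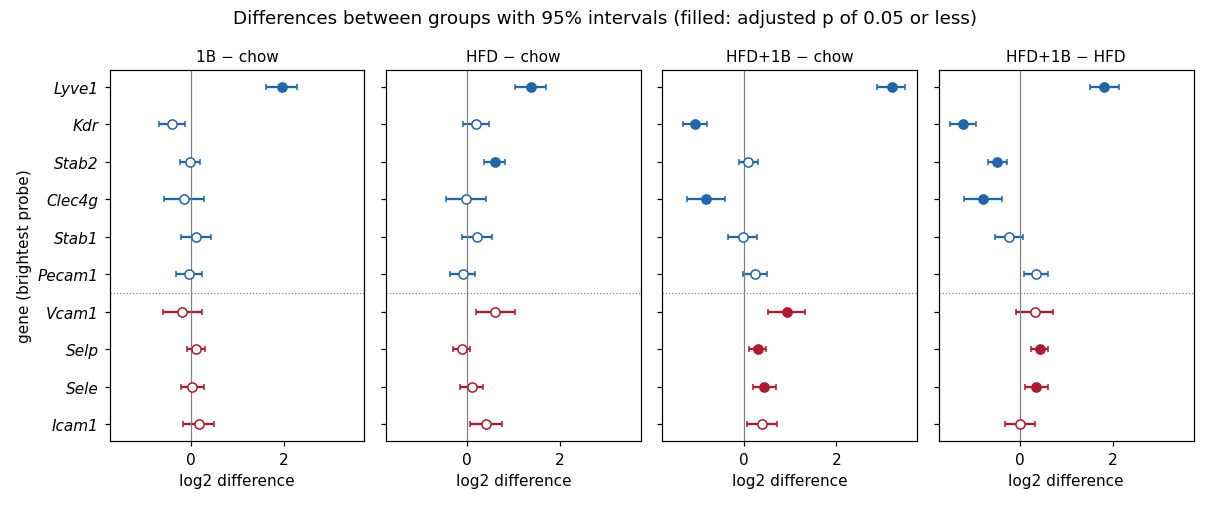
Log2 differences (x axis) of the 6 sinusoidal markers (blue, above the dotted line) and the 4 adhesion molecules (red, below it) on the brightest probe, in 4 comparisons, with 95% intervals as bars and filled points where called (Sele passed the filter through HFD+1B alone). Lyve1 lies to the right of 0 in all 4 panels, from 1.37 to 3.19, and Kdr to the left at -1.05 and -1.23 in the panels with HFD+1B.

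Lyve1, which codes for a hyaluronan receptor of sinusoidal and lymphatic endothelium, showed the largest difference of the 10 genes. Its log2 ratios were -2.66, -2.73, -2.83, and -2.72 in the chow mice and -0.95, -0.40, -1.23, and -0.54 in the 1B mice. They were -1.31, -1.38, -1.42, and -1.36 in the HFD mice and 0.18, 0.72, 0.25, 0.67, and 0.42 in the HFD+1B mice. Every chow mouse was below every other mouse, and every HFD+1B mouse was above every other mouse. Lyve1 rose by 1.96 ± 0.15 (SE) in 1B against chow (3.88-fold, adjusted p = 1.99e-06), by 1.37 ± 0.15 in HFD against chow (2.58-fold, adjusted p = 7e-05), and by 3.19 ± 0.15 in HFD+1B against chow (9.1-fold, adjusted p = 1.03e-09). Within slides, each of which carried at most 1 mouse of a group, the last difference ranged from 2.84 to 3.55 over 4 slides. HFD+1B also exceeded HFD by 1.82 ± 0.15 (adjusted p = 1.95e-06) and 1B by 1.23 ± 0.15 (adjusted p = 4.61e-05). The interaction, which asks whether the binge changed Lyve1 by another amount on the high-fat diet than on chow, was -0.14 (95% interval -0.58 to 0.31, adjusted p = 0.779). On the log2 scale the binge therefore added 1.96 on chow and 1.82 on the high-fat diet. In whole liver, more cells of a type and more RNA per cell cannot be told apart, here and in all results that follow.

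The second probe of Lyve1 gave the same order of group means, with 1B, HFD, and HFD+1B above chow by 1.23 ± 0.18, 1.18 ± 0.18, and 2.51 ± 0.17 (adjusted p = 0.000596, 0.000789, and 1.07e-07). The probes correlated at r = 0.97 over the 17 mice, as a description, and share no run of bases longer than 6. The first 30 of the 60 bases of each are printed to show that the rise was read by separate target sequences.
Lyve1 probe 1: cacccaaaactacggtgcgatgcttagaag
Lyve1 probe 2: cactttgtgtgcctttaacaaatacattat
Among 6 genes of lymphatic endothelium, none was called in any of the 6 comparisons by limma, and at an unadjusted p under 0.05 2 passed in HFD against chow, 1 passed between HFD+1B and HFD, and 0 passed in the others. In HFD+1B against chow the differences of all 6 lymphatic genes were above 0, with a median of 0.10. The mean log2 level of that list relative to chow ranged from 0.08 to 0.22 over the HFD+1B mice. Over the chow mice it ranged from -0.03 to 0.05.

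Kdr, which codes for VEGF receptor 2, went the other way. Its log2 ratios, each the mean of up to 10 spots, were 0.47, 0.62, 0.63, and 0.46 in chow mice, 0.22, 0.04, 0.26, and 0.03 in 1B mice, 0.49, 0.85, 0.75, and 0.83 in HFD mice, and -0.85, -0.28, -0.49, -0.73, and -0.16 in HFD+1B mice. All 5 HFD+1B mice were below all other mice, and all 1B mice were below all chow mice. The SD between spots of 1 array had a median of 0.09, against an SD of 0.29 between the HFD+1B mice. Kdr fell by 1.05 ± 0.13 in HFD+1B against chow (2.07-fold, adjusted p = 2.16e-05), by 1.23 ± 0.13 against HFD (adjusted p = 1.79e-05), and by 0.64 ± 0.13 against 1B (adjusted p = 0.00345). The difference of 1B from chow was -0.41 ± 0.13 (adjusted p = 0.118) and that of HFD from chow 0.18 ± 0.13 (adjusted p = 0.416). The interaction was -0.82 ± 0.18 (adjusted p = 0.0205; 4.12% of all probes were called, 2.51% above 0 and 1.6% below), so the binge lowered Kdr further on the high-fat diet than on chow, although the call was lost with the Cy5 channel alone (-0.75, adjusted p = 0.115). In the table of ratios that the authors computed, the differences were -2.03 against chow and -2.53 against HFD. The other Kdr probe, designed to another transcript, was well above background on 0 of 17 arrays and was not tested.

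Stab2, a scavenger receptor for hyaluronan, followed another pattern. Its log2 ratios were -0.09, -0.05, -0.24, and -0.22 in chow mice, -0.08, -0.08, -0.35, and -0.17 in 1B mice, 0.43, 0.36, 0.45, and 0.52 in HFD mice, and 0.23, -0.11, -0.11, -0.30, and 0.01 in HFD+1B mice. The HFD mice were above all others, and the other groups overlapped. Stab2 rose by 0.59 ± 0.10 in HFD against chow (1.5-fold, adjusted p = 0.00205) and fell by 0.49 ± 0.10 in HFD+1B against HFD (adjusted p = 0.00244). HFD+1B differed from chow by 0.10 ± 0.10 (adjusted p = 0.616), and the interaction of -0.47 ± 0.14 was not called (adjusted p = 0.0686). With median centring neither Stab2 difference was called (0.40, adjusted p = 0.0641, and -0.22, adjusted p = 0.234).

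Stab1, the related scavenger receptor, was not called in any comparison on either of its probes in the fit without a block. On probe 1 the 17 mice ranged from -0.63 to 0.23. HFD+1B differed by -0.02 from chow (95% interval -0.33 to 0.29) and by -0.24 from HFD (adjusted p = 0.286). Same-numbered HFD and HFD+1B mice deviated together, and with the replicate number as a block the difference of Stab1 from HFD was -0.33 and called (adjusted p = 0.0324). With the slide as a block it was -0.27 and not called (adjusted p = 0.113). Pecam1, a junction protein of all endothelium, had a 95% interval of -0.02 to 0.50 in HFD+1B against chow. Against HFD its difference was 0.34 (95% interval 0.08 to 0.60, adjusted p = 0.0628), which was called with the replicate block (0.34, adjusted p = 0.017) and with the slide block (0.37, adjusted p = 0.0126). With the replicate block all 6 sinusoidal markers were thus called in HFD+1B against HFD, 2 of them higher. The other probe that carries the Pecam1 symbol is described in the table as a cDNA clone of the metalloprotease Adam28. It differed by -0.36 in HFD+1B against HFD (adjusted p = 0.083), and by -0.46 with the replicate block (adjusted p = 0.0072), opposite to probe 1.

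**Figure D2:**
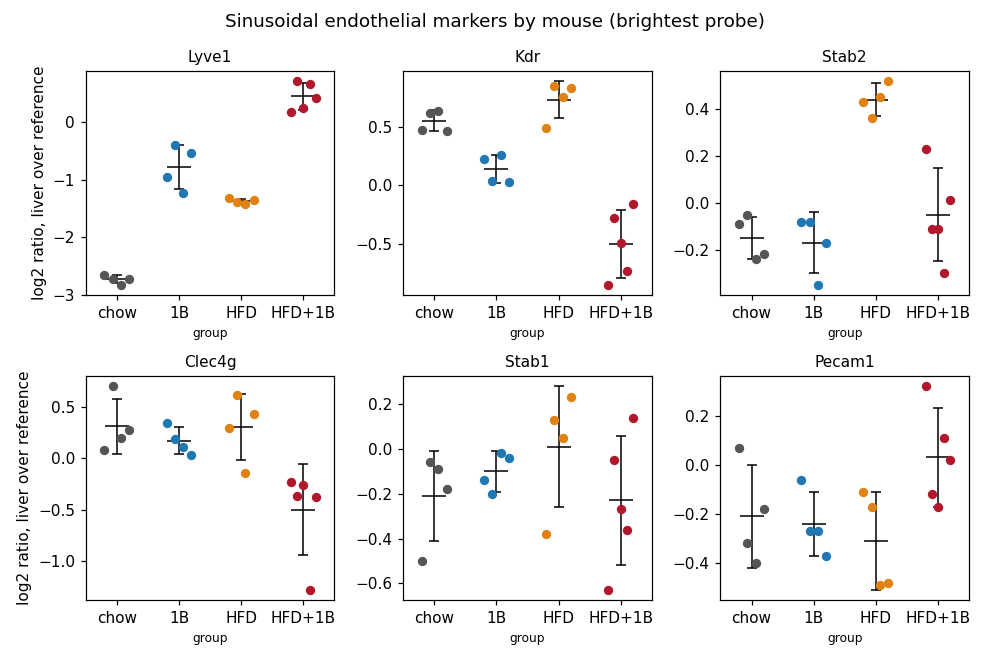
Log2 ratio of liver over reference (y axis, own range in each panel) for the 6 sinusoidal markers, 1 point per mouse in the 4 groups (x axis), with the group mean (horizontal mark) and SD (bars). The HFD+1B mice sit highest for Lyve1 (0.18 to 0.72) and lowest for Kdr (-0.85 to -0.16), and the HFD mice sit highest for Stab2 (0.36 to 0.52).

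Clec4g, a C-type lectin of sinusoidal endothelium, could not be given 1 direction, because its 3 probes disagreed. On probe 1, the brightest, the log2 ratios were 0.08, 0.70, 0.20, and 0.27 in chow mice, 0.34, 0.19, 0.11, and 0.03 in 1B mice, 0.29, 0.61, -0.14, and 0.43 in HFD mice, and -0.23, -0.37, -0.26, -1.28, and -0.38 in HFD+1B mice. All HFD+1B mice were below all other mice, with mouse 4 far below the rest. Probe 1 fell by 0.82 ± 0.19 against chow (adjusted p = 0.00745), by 0.80 ± 0.19 against HFD (adjusted p = 0.00859), and by 0.67 ± 0.19 against 1B (adjusted p = 0.0352). The difference from 1B was not called without HFD+1B mouse 4 (-0.48, adjusted p = 0.0632), nor without 1B mouse 1, 2, or 3 (adjusted p = 0.104, 0.0798, and 0.0698). With the Cy5 channel alone the difference of Clec4g probe 1 from chow was -0.96 and not called (adjusted p = 0.125).

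On probe 2 the HFD+1B mice stood at 0.06, 0.45, 0.70, -0.13, and -0.21, above all chow mice (-0.36, -0.24, -0.86, and -0.64) and above all 1B mice (-0.54, -0.57, -0.99, and -0.95). Probe 2 of Clec4g thus rose by 0.70 ± 0.19 against chow (adjusted p = 0.0189) and by 0.94 ± 0.19 against 1B (adjusted p = 0.00426), and the rise against chow was not called without chow mouse 3 or 4 (adjusted p = 0.0771 and 0.0589). Probe 3 differed by 0.08 from chow (adjusted p = 0.857). The correlations between the probes over the 17 mice were -0.32, -0.25, and -0.31. With the mean of the 3 probes, Clec4g differed by -0.01 from chow (adjusted p = 0.952). Probe 1 was designed to the reference mRNA of Clec4g, and probes 2 and 3 to another transcript. The first 30 bases of each are shown because the call on Clec4g rests on which of them is read.
Clec4g probe 1: tgtcagtctcaaaatcactgctctaaaccc
Clec4g probe 2: tcttgtcggaacccactgaaactcactgga
Clec4g probe 3: actcaggagccctagcatagatatctctga

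Vcam1 codes for the adhesion molecule that binds integrin VLA-4 on monocytes and lymphocytes. Its log2 ratios were -0.18, -0.55, -0.36, and -0.55 in chow mice, -0.85, -0.81, -0.50, and -0.22 in 1B mice, -0.11, 0.31, 0.27, and 0.33 in HFD mice, and -0.10, 1.12, 0.70, 0.51, and 0.36 in HFD+1B mice. All mice on the high-fat diet were above all mice on chow, with or without ethanol, while HFD+1B mouse 1 lay among the HFD mice. Vcam1 rose by 0.93 ± 0.19 in HFD+1B against chow (1.9-fold, adjusted p = 0.00248) and by 1.11 ± 0.19 against 1B (2.16-fold, adjusted p = 0.00112). The difference of HFD from chow was 0.61 ± 0.20 (adjusted p = 0.0602), and it was called with the slide as a block (0.64, adjusted p = 0.0405) and without HFD mouse 1 (0.72, adjusted p = 0.0426), HFD+1B mouse 1, or HFD+1B mouse 2. HFD+1B differed from HFD by 0.32 (95% interval -0.09 to 0.72), and 1B from chow by -0.18 (95% interval -0.60 to 0.24). With the Cy5 channel alone the difference of HFD+1B from chow was 0.65 and not called (adjusted p = 0.174). The dimmer probes 2 and 3 of Vcam1 differed by -0.08 and 0.34 from chow in HFD+1B (adjusted p = 0.758 and 0.198). Probe 3 correlated with probe 1 at r = 0.79 over the mice and probe 2 at r = -0.29.

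Selp codes for P-selectin, which endothelium and platelets store in granules and bring to the surface to catch rolling leukocytes. On its 10-spot probe the log2 ratios were 0.10, -0.23, -0.16, and -0.10 in chow mice, 0.06, 0.02, 0.06, and -0.08 in 1B mice, -0.24, -0.21, -0.23, and -0.20 in HFD mice, and 0.30, 0.19, 0.08, 0.39, and 0.06 in HFD+1B mice. The HFD+1B mice were above all HFD mice and overlapped with chow. Selp rose by 0.42 ± 0.09 in HFD+1B against HFD (1.34-fold, adjusted p = 0.00294) and by 0.30 ± 0.09 against chow (1.23-fold, adjusted p = 0.0246). The difference from chow was not called without any 1 of chow mice 2, 3, or 4 or HFD+1B mice 1 or 4 (adjusted p = 0.0515 to 0.0886). Against 1B it differed by 0.19 and was not called (adjusted p = 0.199). Probe 2 of Selp rose by 0.52 ± 0.11 against HFD (adjusted p = 0.00445), by 0.39 ± 0.11 against chow (adjusted p = 0.0239), and by 0.58 ± 0.11 against 1B (adjusted p = 0.00304). The rise of probe 2 against chow was lost without chow mouse 2 or 3 or HFD+1B mouse 2 or 4 (adjusted p = 0.0518 to 0.0834). Its interaction was 0.70 ± 0.16 (adjusted p = 0.0242), whereas that of probe 1 was 0.31 ± 0.13 and not called (adjusted p = 0.172). The interaction of probe 2 was also not called with the Cy5 channel alone (0.65, adjusted p = 0.0946), the authors' ratios (1.13, adjusted p = 0.0657), or median centring (0.70, adjusted p = 0.0503).

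Sele codes for E-selectin, which endothelium makes anew when cytokines stimulate it. Its probe was well above background on all 5 HFD+1B arrays and on none of the other 12. The log2 ratios in HFD+1B mice were 0.63, 0.20, 0.15, 0.05, and -0.02. The dim arrays of the other groups ranged from -0.42 to -0.02. Because the other groups have only a bound, lower bounds on the ratio of mean normalized Cy5 levels were computed. They were 1.27 for HFD+1B over chow, 1.32 over HFD, and 1.23 over 1B. They carry no error between mice, and for a probe selected by the filter they are not evidence for a rise. These bounds set the mean signal in HFD+1B against a raised signal on the dim arrays. On each dim array that was the larger of the probe's own signal and the lowest signal well above background. The raised log2 means were 5.98 in chow, 5.93 in HFD, and 6.03 in 1B, close to the measured 5.97, 5.89, and 6.00. The bounds thus stay near the measured difference of a probe selected by the filter, and without swapped dyes they are open to dye bias. The fit of the log2 ratios, a separate quantity, gave adjusted p = 0.012 against chow, 0.0401 against HFD, and 0.0266 against 1B. A probe that passes the filter through 1 group had to differ, so these p-values are not evidence for a rise of Sele, and its difference cannot be ranked with those of the other adhesion molecules. The p against HFD exceeded 0.05 without HFD+1B mouse 1, 2, or 3, any of the HFD mice, or chow mouse 4, and the p against 1B without 1B mouse 1 or 3.

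Icam1, the ligand of the leukocyte integrins LFA-1 and Mac-1, was not called in any of the 6 comparisons on either probe. On its 10-spot probe the log2 ratios were -0.54, -0.22, -0.66, and -0.78 in chow mice, -0.47, -0.14, -0.46, and -0.45 in 1B mice, -0.39, -0.27, 0.10, and -0.04 in HFD mice, and -0.58, -0.19, 0.11, 0.18, and -0.26 in HFD+1B mice. The groups overlapped in every comparison. Both high-fat groups had means 0.40 above chow, with adjusted p = 0.122 in HFD and 0.088 in HFD+1B, and HFD+1B differed from HFD by 0.00 (95% interval -0.32 to 0.32). The difference of HFD+1B from chow was called without HFD+1B mouse 1 (0.51, adjusted p = 0.0204) or without chow mouse 2 (0.51, adjusted p = 0.0425).

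**Figure D3:**
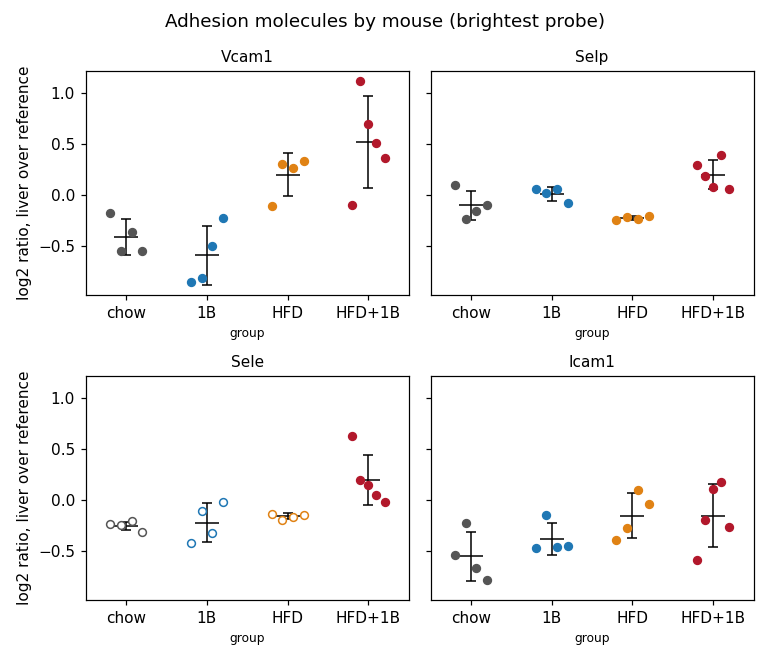
Log2 ratio of liver over reference (y axis, shared range) for the 4 adhesion molecules on the brightest probe, 1 point per mouse in the 4 groups (x axis), with group mean and SD. Open points are arrays on which the probe was not well above background, which is the case for all 12 Sele points outside HFD+1B.

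**Figure D4:**
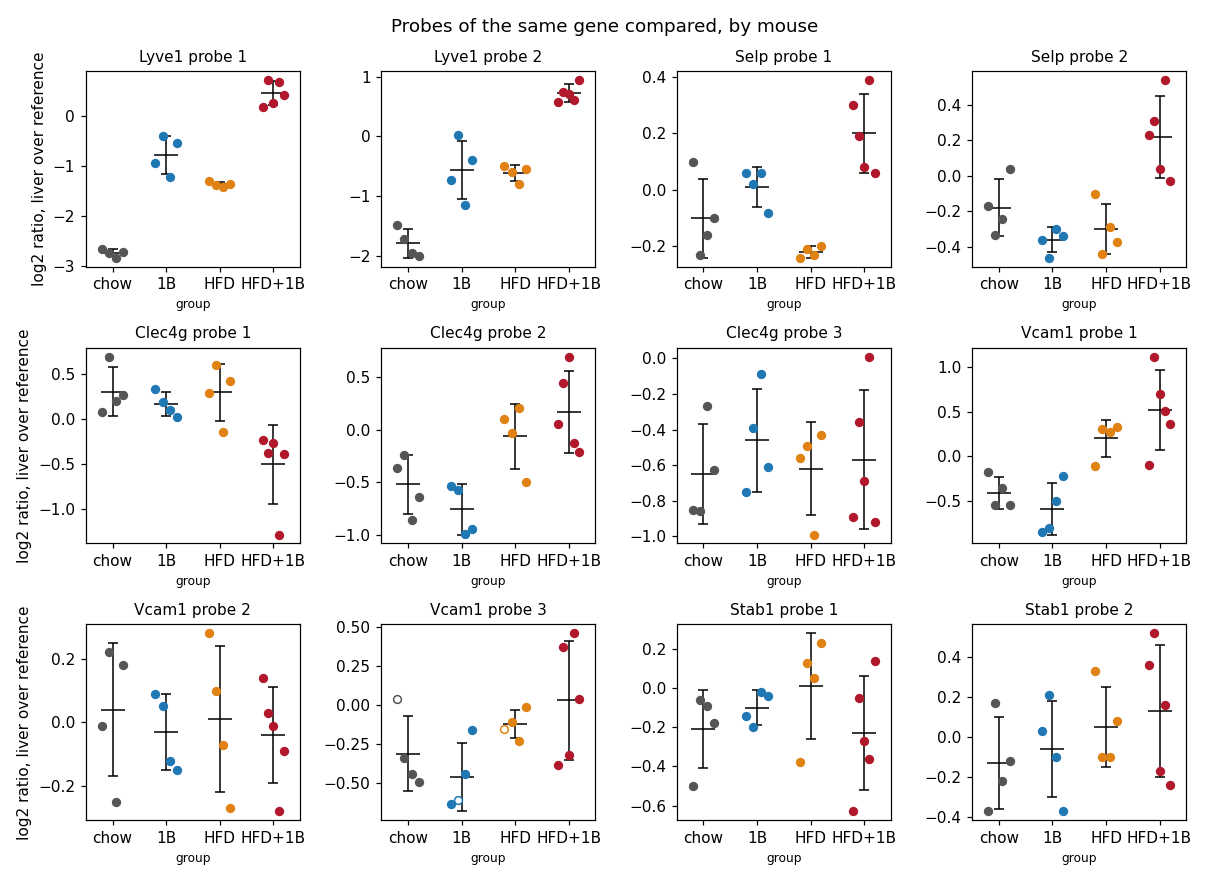
Log2 ratio (y axis, own range in each panel) of all probes of Lyve1, Selp, Clec4g, Vcam1, and Stab1 by mouse and group (x axis), with mean and SD and open points where not well above background. The probes of Lyve1 and of Selp give similar pictures, whereas Clec4g is lowest in HFD+1B on probe 1 and highest there on probe 2.

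Sele and Selp lie close to each other on chromosome 1, with starts 67 kb apart in GRCm38.p6. The RefSeq promoter table of that build, which covers 250 bases before to 50 after the start, matched 7 of the 10 genes and not Lyve1, Pecam1, or Vcam1. Both strands were searched for the NF-kB motif by its name, the AP-1 motif TGANTCA, which reads the same on both strands, and the GATA motif AGATAA. The AP-1 motif was in 2 of the 7 promoters, Sele (bases -73 to -67) and Selp (-139 to -133), and in 7.81% of all 32851 promoters. The NF-kB motif was in 1, Kdr (-74 to -65), and in 8.46% of all, and the GATA motif was in 0 of the 7 and 11.2% of all. These matches are descriptions of the sequence. Only exact matches to 1 strict consensus per motif were counted, so a promoter without a match is not shown to lack a site, in Sele and Icam1 as elsewhere. The Sele promoter (chr1:164047984-164048283, plus strand), the Selp promoter (chr1:164115014-164115313, plus strand), and the Kdr promoter (chr5:75978406-75978705, minus strand) are printed with their motifs in capitals, as the genes whose promoters hold one.
Sele: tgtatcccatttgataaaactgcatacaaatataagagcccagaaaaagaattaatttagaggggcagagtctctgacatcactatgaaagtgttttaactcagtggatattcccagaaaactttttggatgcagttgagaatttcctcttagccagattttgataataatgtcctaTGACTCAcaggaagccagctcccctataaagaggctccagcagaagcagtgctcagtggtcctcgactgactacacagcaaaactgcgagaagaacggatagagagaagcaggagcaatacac
Selp: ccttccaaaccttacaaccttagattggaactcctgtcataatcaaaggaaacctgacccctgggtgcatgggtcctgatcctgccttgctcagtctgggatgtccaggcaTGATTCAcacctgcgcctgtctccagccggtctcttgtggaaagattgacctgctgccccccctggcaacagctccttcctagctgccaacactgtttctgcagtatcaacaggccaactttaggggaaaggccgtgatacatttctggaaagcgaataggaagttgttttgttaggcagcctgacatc
Kdr: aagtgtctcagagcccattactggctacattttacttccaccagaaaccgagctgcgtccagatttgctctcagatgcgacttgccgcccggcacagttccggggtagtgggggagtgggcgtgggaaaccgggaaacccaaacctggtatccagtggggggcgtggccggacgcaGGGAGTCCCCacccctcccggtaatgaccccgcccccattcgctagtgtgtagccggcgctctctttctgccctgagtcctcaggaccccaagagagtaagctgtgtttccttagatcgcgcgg

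Other genes of sinusoidal endothelium were mostly not called, and those called in comparisons with HFD+1B fell. Of 18 further sinusoidal genes, 0 rose and 3 fell in HFD+1B against chow (median -0.12). Against HFD, 0 rose and 4 fell (median -0.17). In HFD against chow, 1 rose and 0 fell (median 0.1). Over all genes tested, 8.89% rose and 7.4% fell in HFD+1B against chow, and 11% and 8.41% against HFD. The shares in HFD against chow were 4.5% and 6.47%. Dnase1l3, which codes for a secreted nuclease, fell by 1.45 ± 0.16 against chow (adjusted p = 7.68e-06), and was already lower by 0.81 in 1B (adjusted p = 0.00848). Ehd3, an endocytic trafficking protein, fell by 1.17 against chow (adjusted p = 0.00456), and Oit3 by 0.49 against chow (adjusted p = 0.0414) and 0.76 against HFD (adjusted p = 0.00282). Of 20 genes shared by all endothelium, 4 rose and 1 fell in HFD+1B against chow (median 0.14), 2 rose and 1 fell against HFD (median -0.03), and 2 rose and 0 fell in HFD against chow (median 0.22). Nos3, the endothelial nitric oxide synthase, rose by 0.93 (adjusted p = 8.82e-05), Plvap, a component of endothelial diaphragms, by 0.93 (adjusted p = 0.000534), and Cdh5, the junction protein VE-cadherin, by 0.78 (adjusted p = 0.00038). The gene that fell was S1pr1, by 0.62 (adjusted p = 0.0112), named after its value was seen.

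The pathway around the adhesion molecules was read from 4 further lists. Beside them, 8.89% of all genes tested rose and 7.4% fell in HFD+1B against chow. In 1B against chow the shares were 2.09% and 2.04%. Of 17 other adhesion and junction genes, 4 rose and 0 fell in HFD+1B against chow (median 0.12). Jam2, a junctional adhesion molecule, rose by 0.94 (adjusted p = 0.000277), Cd34, a sialomucin, by 0.80 (adjusted p = 0.00655), and Mcam by 0.49 (adjusted p = 0.00375). Cd34 is also counted among the genes shared by all endothelium. Of 13 leukocyte integrins and selectin ligands, 1 rose and 0 fell (median 0.25), with rises near the share over all genes. Selplg, which codes for the P-selectin ligand PSGL-1, differed by 0.04 from chow (adjusted p = 0.902) and rose by 0.48 against HFD (adjusted p = 0.0113). Of 20 inducers and NF-kB feedback genes, 8 rose and 0 fell in HFD+1B against chow (median 0.18), while 0 were called in 1B against chow by limma (4 at an unadjusted p under 0.05). Cxcl1, a neutrophil chemokine, rose by 2.61 (adjusted p = 0.000168), Il1r1, the interleukin-1 receptor, by 1.87 (adjusted p = 0.000482), and Relb, an NF-kB subunit, by 0.74 (adjusted p = 0.000637). Of 10 angiogenic ligands, 1 rose and 1 fell, near the shares over all genes. The ligand of the receptor coded by Kdr, Vegfa, fell by 0.60 in HFD+1B against chow (adjusted p = 0.00756) and by 0.62 in HFD against chow (adjusted p = 0.0141).

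**Figure D5:**
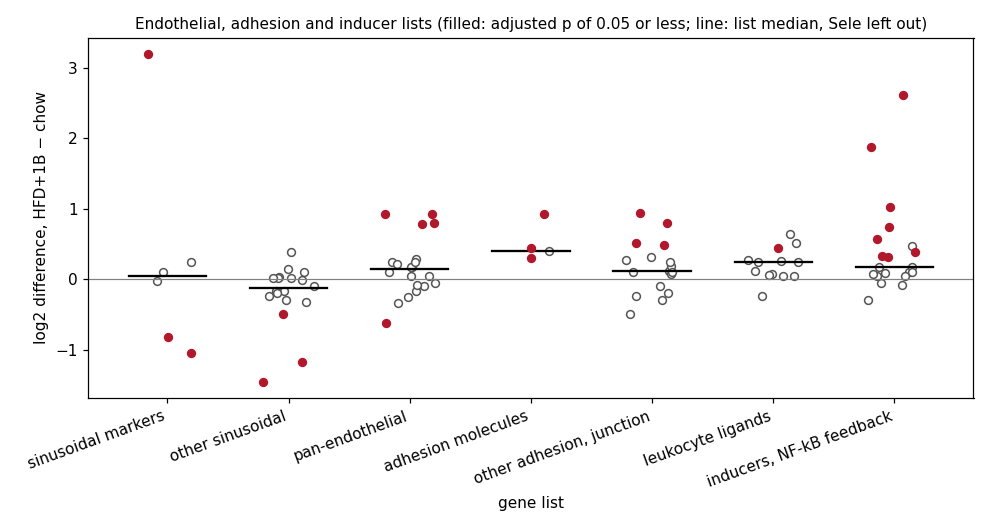
Log2 difference of HFD+1B from chow (y axis) for each gene of 7 lists (x axis), with filled points called and a line at each list's median, from which Sele is left out. The other sinusoidal genes have called points only below 0, down to -1.45 for Dnase1l3, and the inducer list only above 0, up to 2.61 for Cxcl1.

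Some markers of other cells also differed between these groups, and their part in the results above was not tested. Beside the counts below, 8.89% of all genes tested rose and 7.4% fell in HFD+1B against chow. The shares were 11% and 8.41% in HFD+1B against HFD, and 4.5% and 6.47% in HFD against chow. In 1B against chow they were 2.09% and 2.04%. The platelet and hepatocyte counts in HFD+1B against chow were near the shares over all genes. Kupffer cells and macrophages can express Vcam1: of their 14 tested markers, 4 rose with HFD, 3 with HFD+1B, and 0 with 1B (0 also at an unadjusted p under 0.05, limma), each against chow, with Cd68 higher by 1.28 in HFD (adjusted p = 0.0012) and 1.37 in HFD+1B (adjusted p = 0.000115). The mean log2 level of that list relative to chow ranged from -0.23 to 0.29 over the chow mice and from -0.09 to 0.18 over the 1B mice, against 0.42 to 0.51 with HFD and 0.19 to 0.80 with HFD+1B. The Kupffer cell marker Clec4f differed by 0.12 in HFD and 0.32 in HFD+1B (adjusted p = 0.635 and 0.102). Platelets carry Selp: of 10 platelet markers, 1 rose in HFD+1B against chow (Pf4, 0.70, adjusted p = 0.0258) and 2 against HFD (Itgb3 and Gp1bb, 0.69 and 0.51, adjusted p = 0.00722 and 0.0196). Ppbp was well above background on 4 HFD+1B arrays and on none of the others. Its probe thus passed the filter through HFD+1B alone, like that of Sele, and is not evidence for a rise. Ppbp remains among the 10 markers and in the list mean. The platelet list mean ranged from -0.06 to 0.07 over the chow mice and -0.05 to 0.09 over the 1B mice, against -0.23 to 0.12 with HFD and -0.02 to 0.25 with HFD+1B. Of 15 neutrophil genes, 3 rose and 1 fell in HFD+1B against chow (median -0.04). S100a9, a calcium-binding protein, rose by 1.04 (adjusted p = 0.0016), whereas Csf3r, the receptor for granulocyte colony-stimulating factor, fell by 1.04 (adjusted p = 0.00466). Of 9 hepatocyte genes, 0 rose and 2 fell in HFD against chow, where Stab2 rose. Apob, the apolipoprotein of very-low-density lipoprotein, differed by -2.77 (adjusted p = 0.00275), and the other gene that fell was Tat. The hepatocyte list mean relative to chow ranged from -0.06 to 0.16 over the chow mice, -0.18 to -0.08 over the 1B mice, -0.71 to -0.31 with HFD, and -0.38 to 0.14 with HFD+1B. In HFD+1B against chow 1 hepatocyte gene rose and 1 fell, of 10 stellate cell genes 5 rose and 0 fell, and of 11 lymphocyte genes 0 were called by limma (2 at an unadjusted p under 0.05) in that comparison.

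As a description over the 17 mice, with no test, Lyve1 and Kdr ran opposite to each other (r = -0.80), but within groups the correlation of their deviations from the group means was -0.13. Selp and Kdr gave -0.88 over all mice and -0.48 within groups, and Kdr and Stab1 gave 0.53 and 0.87. Sele was left out of the comparison of profiles, because its probe was not well above background on any array outside HFD+1B. Among 17966 genes, the profiles most like that of Icam1 over the 17 mice were Pcolce (r = 0.846), Ly6c1 (0.836), and Xpo1 (0.824). For Vcam1 they were Mgst3 (0.936), Pdk4 (0.928), and Cstb (0.919). For Selp they were Nmrk2 (0.961), Ccne1 (0.948), and 6430571L13Rik (0.945). For the mean of the 6 sinusoidal markers they were Hdac7 (0.847), Mapre1 (0.827), and Rcn1 (0.825). All values of 1 mouse share 1 array.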

How the data were processed

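Liver RNA of 17 mice was hybridized by the authors to Agilent 44K mouse arrays of 60-base probes, liver in Cy5 and a common reference in Cy3, without swapped dyes. Per the file headers, spots were read with Agilent Feature Extraction 11.5.1.1, and the deposited spot values are raw intensity with local background. The authors also deposited a file of log2 ratios of processed signals, used as an alternative. Here all spots were background corrected (normexp, offset 50), normalized within arrays by loess, and averaged per probe after outlier spots were left out. A near-background probe therefore gives a compressed ratio. Probes were kept when well above background in Cy5 on at least 4 of 17 arrays and measured in every group. Group means were fitted with limma 3.58.1 in R 4.3.3 (package data.table, version 1.17.8), with 13 residual degrees of freedom from the samples, and Benjamini-Hochberg adjustment over 34650 probes. 0 value columns were left without a mouse.

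Members, gene lists, and tests were chosen with earlier results of these data known. Named genes are all members on every probe, and from each other list up to 3 genes of smallest adjusted p among those called in HFD+1B against chow or HFD, with defining cell markers beside them. Cell type lists covered other sinusoidal, pan-endothelial, and lymphatic endothelium, adhesion and junction genes, leukocyte ligands, inducers, angiogenic ligands, neutrophils, Kupffer cells, platelets, hepatocytes, stellate cells, and lymphocytes. Symbols were updated by accession against RefSeq (28378 of 41174 probes matched). The arrays lie on 5 slides, which hold several groups each, and replicate numbers largely follow them. Deviations from group means correlated between same-numbered mice at 0.15 to 0.48 in all 4 pairs of HFD and HFD+1B. In the other pairs of groups at least 1 correlation was under 0.1. The labels name no shared litter or day. Mice of different groups on the same slide correlated at a median of 0.2, against -0.04 on different slides. The fit reported has no block, so its p-values for HFD+1B against HFD do not use this pairing. The replicate number and the slide were blocks only in alternatives. In data simulated for HFD+1B against chow (34650 probes), the fit recovered 56% of 50 probes changed by 0.5, 92% of 100 changed by 1, and 98% of 50 changed by 2 on the log2 scale. Only those probes were changed there, with independent noise and no slide effect. The rates therefore check the fit and are not its power in these data. Alternatives were no background subtraction, the authors' table, median centring, Cy5 alone, no filter and a strict filter on dim probes, outlier spots kept, slide or replicate as a block, each array left out, only the compared groups, the 2-fold rule, the Tukey test after 1-way analysis of variance named in the methods, and the mean of a gene's probes.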

Additional observations from a re-analysis of the deposited data

Results flagged for a closer look

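Kdr probe 1 had an interaction of -0.82 (adjusted p = 0.0205): the binge difference was -0.41 on chow and -1.23 on the high-fat diet, and over 17 fits that each left out 1 array the interaction ranged from -0.91 to -0.74 and was called in all 17, but not with the Cy5 channel alone (adjusted p = 0.115) or the 2-fold rule. Selp probe 2 had an interaction of 0.70 (adjusted p = 0.0242): the binge difference was -0.19 on chow and 0.52 on the high-fat diet, and the call was lost without chow mouse 4 or HFD mouse 4 (adjusted p = 0.0588 and 0.054), and with the Cy5 channel alone, the 2-fold rule, the authors' ratios, and median centring.

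Single mice stood apart in 3 of 76 groups of values examined over the member probes, where chance flags about 3.8. HFD+1B mouse 4 was low for Clec4g probe 1 at -1.28, with the next mouse at -0.38 (gap 0.852 of the range). 1B mouse 2 was high for Icam1 probe 1 at -0.14, with the next at -0.45 (gap 0.948). HFD mouse 1 was low for Vcam1 probe 1 at -0.11, with the next at 0.27 (gap 0.867).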

How the results depend on the processing

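Same-numbered pairs of mice had deviations that correlated at a median of 0.18 (24 pairs, range -0.13 to 0.48), beside -0.05 for pairs with different numbers. Only for HFD and HFD+1B did every pair exceed 0.1. With the replicate block, 7 member differences gained a call and 0 lost one. The sinusoidal markers called in HFD+1B against HFD rose from 4 to 6 (5 with the slide block), those in 1B against chow to 2 with Kdr (-0.41, adjusted p = 0.0476), those in the interaction to 2, and the adhesion genes in HFD against chow to 1, and the probes called in the interaction rose from 1426 to 2910. Under fits that left out 1 array, 1898 of 1938 member results kept their side of the threshold, 27 lost and 13 gained a call. The only reversal was Clec4g probe 1 in HFD+1B against 1B, 0.05 with the mean of its probes. Both Lyve1 probes in all 5 group comparisons, and Kdr in HFD+1B against chow and HFD, kept direction and call under every alternative run.

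All counts of adhesion genes in this paragraph include Sele, whose probe passed the filter through HFD+1B alone, so its calls are not evidence for a rise. Without Sele, 2 adhesion genes were called in HFD+1B against chow, 1 against HFD, and 1 against 1B. The changes of the counts with Sele were as follows. Those called in HFD+1B against chow (3) became 1 with Cy5 alone or median centring and 0 with the Tukey test (adjusted) or the 2-fold rule, 2 with the strict filter, and 2 to 3 when an array was left out. Against HFD (2) they became 1 with Cy5 alone, the Tukey test, median centring, the compared groups only, the strict filter, or the slide block, and 0 with the 2-fold rule (1 to 2 without an array). Against 1B (2) they became 0 with Cy5 alone and 1 with the Tukey test, the 2-fold rule, median centring, the compared groups only, or the strict filter (1 to 2 without an array). In HFD against chow (0) they also became 1 with the authors' table, no background subtraction, the compared groups only, or the slide block (0 to 1 without an array), and in the interaction (0) 1 with the mean of probes.

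The sinusoidal genes called were 2 rather than 1 in 1B against chow with the unadjusted Tukey test or the compared groups only (1 without an array). They were 1 rather than 2 in HFD against chow with Cy5 alone, median centring, or the 2-fold rule. In HFD+1B against 1B they were 1 rather than 3 with Cy5 alone, the Tukey test, or the 2-fold rule (2 to 3 without an array), and against HFD 2 rather than 4 with the 2-fold rule (4 to 5). In the interaction they were 0 rather than 1 with Cy5 alone or the 2-fold rule (1 to 2).

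Probes called with Cy5 alone, the Tukey test, and the 2-fold rule were 287, 301, and 296 of a usual 1256 in 1B against chow (788 with median centring, 828 with the authors' table, 2290 with the unadjusted Tukey test, 721 to 1482 without an array). They were 1422, 505, and 555 against 3457 in HFD against chow (1832 to 3769), 1859, 2186, and 853 against 5121 in HFD+1B against chow (3837 to 5457), 2153, 1760, and 608 against 6216 against HFD (4097 to 7034), and 898, 917, and 526 against 3466 against 1B (2293 to 3745). The interaction gave 317 with Cy5 alone and 704 with the 2-fold rule (667 to 2118). The share of calls that were rises moved from 38.8% to 14.3% (median centring) and 21.7% (Cy5 alone) in HFD against chow, from 52.7% to 65.7% (median centring) in HFD+1B against chow, from 55.3% to 86.5% and 69.3% against HFD, from 53% to 73% (median centring) against 1B, and from 61% to 91.1% and 86.1% in the interaction. The cause was not tested. Dim probes such as that of Sele limit what can be read, since ratios near background are compressed.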
